A study of Mus musculus with 4 samples.

Results

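Imprinted genes are genes that are read mainly from the copy inherited from 1 parent, and 35 of them were followed in the mouse embryonic stem cell (ESC) line AB2.2 with and without lactate supplementation. They were chosen by symbol from a list of well-known imprinted genes, and all 35 were found among the 55335 genes of the count table. RNA sequencing compared 2 control libraries with 2 libraries made after 24 h of lactate at 50 mM. Both groups grew on mouse embryonic fibroblast (MEF) feeder cells in serum with leukemia inhibitory factor, the GSK3 inhibitor CHIR99021 and the MEK inhibitor PD0325901. Only this ESC line was used, and the labels do not say whether the 2 replicates were separate cultures or whether feeders were removed before the RNA was taken, so the p-values measure the spread between these libraries. The reads were counted per gene and not per parental copy, so a change in level does not show from which copy the RNA came.

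Imprinting begins in the germ line, where DNA methylation is laid down on germline differentially methylated regions (DMRs) in either the egg or the sperm. After fertilization the methylated copy is protected from genome-wide demethylation by the zinc finger protein ZFP57, which binds a methylated hexamer and recruits TRIM28, SETDB1 and DNMT1. Most imprinted genes lie in clusters that share such a region, and many regulate fetal growth, the placenta or behaviour. In cultured ESCs the methylation at these regions is known to be prone to loss.

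The 4 libraries held 18067562 to 19077885 gene counts, and mitochondrial genes took 5.48% and 5.72% of the counts in both replicates numbered 1, against 2.43% and 2.82% in both replicates numbered 2. Replicates of a group differed by more than sampling noise. All 10 ESC markers, which include Pou5f1 and Nanog, were detected in each library, with a summed level of 5785 and 6192 CPM (counts scaled to a fixed library total) in control and 6151 and 6991 CPM with lactate. The 19 fibroblast markers were also detected in each library, with a summed level of 3706 and 4043 CPM in control and 4510 and 4149 CPM with lactate. Without Fn1 these sums were 1316 and 1695 CPM in control and 1189 and 1302 CPM with lactate. Of the 18 fibroblast markers tested, 2 were higher, or 11.1%, and 3 were lower, or 16.7%, at an unadjusted p below 0.05, against 11.7 and 11.4 percent of all genes, with a median log2 fold change of 0.11. At the same threshold 3 of the 10 ESC markers were higher, or 30%, and 1 was lower, or 10%. Their median log2 fold change was 0.05. The ESC marker Dppa5a alone had 542 and 982 CPM in control and 564 and 1388 CPM with lactate. The part of feeder RNA in the levels of the imprinted genes was not tested, and fewer cells of a type and less RNA per cell cannot be told apart.

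The imprinted genes covered a wide range of levels, compared here per length as FPKM (fragments scaled to transcript length and library total). In control cells 4 of the 35 genes had a mean above 100 FPKM, 13 lay between 10 and 100 FPKM, 12 between 1 and 10 FPKM, and 6 below 1 FPKM. Gnas, which encodes the stimulatory G protein alpha subunit, had the highest mean level in control, with 139.9 and 139 FPKM in control and 153.1 and 135.5 FPKM with lactate. The noncoding RNAs Meg3 and Rian of the Dlk1-Meg3 cluster followed, with control means of 133.6 and 132.3 FPKM, and with lactate the mean of Meg3, 163.2 FPKM, was above that of Gnas, 144.3 FPKM. The 3 control means differed by less than the gap between the control libraries of Meg3, 126.9 and 140.4 FPKM. The genes below 1 FPKM were Zim1, Nap1l5, Airn, Kcnq1ot1, Rtl1 and Magel2. Within the Dlk1-Meg3 cluster the maternally expressed Meg3 stood far above the paternally expressed Dlk1, which encodes a transmembrane ligand related to Delta. The ratio of their FPKM was 53.3 and 80.2 in control and 51.2 and 102.1 with lactate, so the groups overlapped. H19, a maternally expressed noncoding RNA, and Igf2, the fetal growth factor next to it, stood at similar levels, with a ratio of FPKM of 0.968 and 1.21 in control and 1.09 and 1.23 with lactate.

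**Figure D1:**
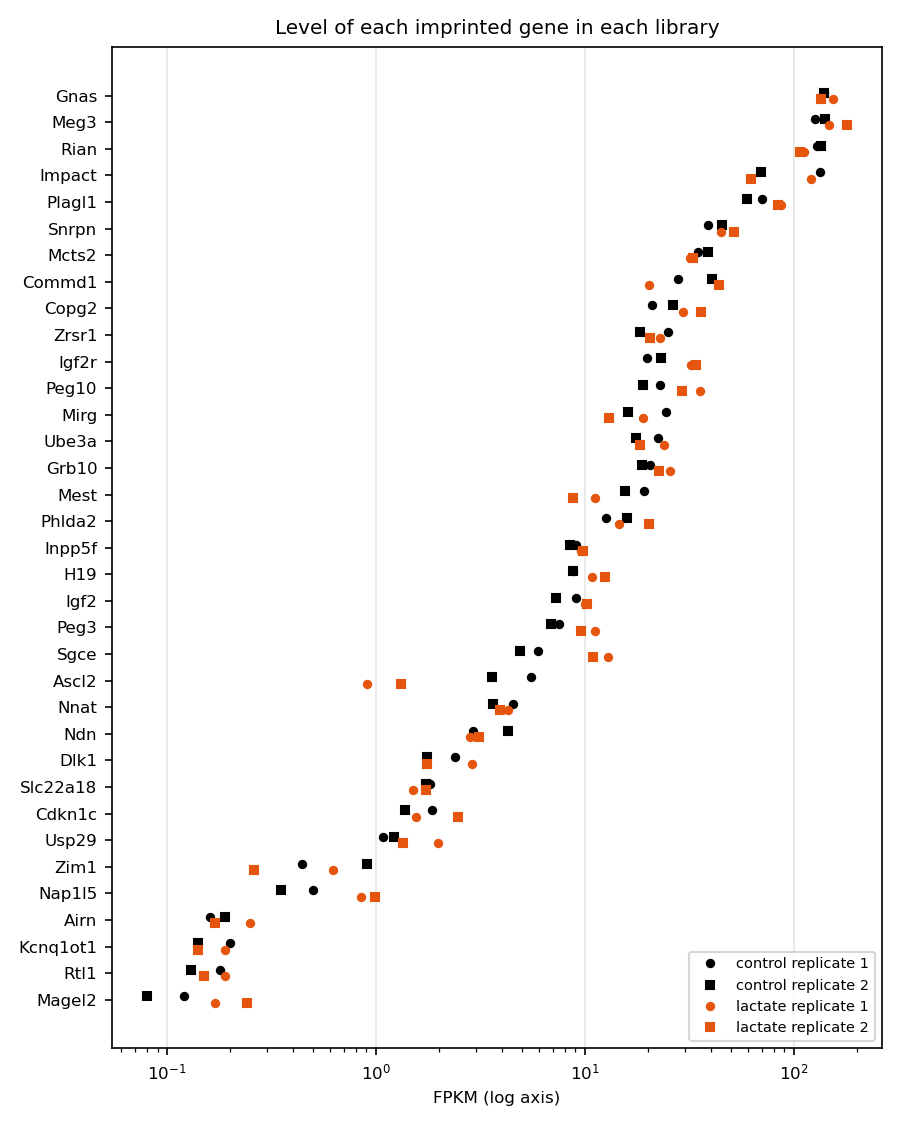
Level of the 35 imprinted genes in FPKM on a log axis, with a point for each of the 2 control and 2 lactate libraries. Levels reach from 6 genes below 1 FPKM to 4 genes above 100 FPKM in control cells, and for most genes the groups lie close to each other.

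The edgeR quasi-likelihood test was used, with Benjamini-Hochberg adjustment over 18661 genes. Of all genes tested 0.9 percent passed the threshold of an adjusted p below 0.05 and a change over 2-fold. None of the imprinted genes followed here did. None had an adjusted p below 0.05 alone in edgeR, which 0.991 percent of all genes had, while DESeq2 gave 3 of them, Sgce, Ascl2 and Mest, against 2.57 percent of the genes it fitted. A change over 2-fold in the fit was seen in 3 of them, Ascl2, Sgce and Magel2, and in 6.49 percent of all genes. DESeq2 called 2 of them, Ascl2 and Sgce, where it called 1.09 percent of the 32923 genes it fitted, and limma on FPKM called 0 of all 20019 genes it tested. At an unadjusted p below 0.05 DESeq2 had 3 of the 35 higher and 2 lower, against 3.71 and 4.99 percent of the 32923 genes. Those include every gene with at least 1 count, where edgeR tested 18661 genes after a filter on low counts. The shares of all genes from DESeq2 and edgeR thus have different bases. Of the 35 genes 34 had enough counts to be tested. The exception was Airn, the paternally expressed antisense RNA that silences Igf2r, with 5 and 6 counts in control and 7 and 7 with lactate. At an unadjusted p below 0.05, 7 of the 34 were higher with lactate, or 20.6%, against 11.7 percent of all genes, and 2 were lower, or 5.88%, against 11.4 percent of all genes. The higher ones were Sgce, Magel2, Nap1l5, Peg10, Igf2r, Peg3 and Copg2, and the lower ones were Ascl2 and Mest. The count of 7 depended on the libraries, as it was 2 without control replicate 1, 2 without control replicate 2 and 2 without lactate replicate 1, where 7.29, 7.42 and 8.18 percent of all genes were higher, in fits where the lone library of a group is assumed to vary like the pair of the other group. The other 25 genes did not pass this threshold. In 14 of the 34 genes, or 41.2%, the 2 lactate libraries were both above the 2 control libraries, against 27 percent of all genes. In 9, or 26.5%, both lay below, against 25.9 percent of all genes. The log2 fold change was positive in 20 genes and negative in 14, where 51 percent of all genes were positive, with a median of 0.16 against 0.01 over all genes.

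**Figure D2:**
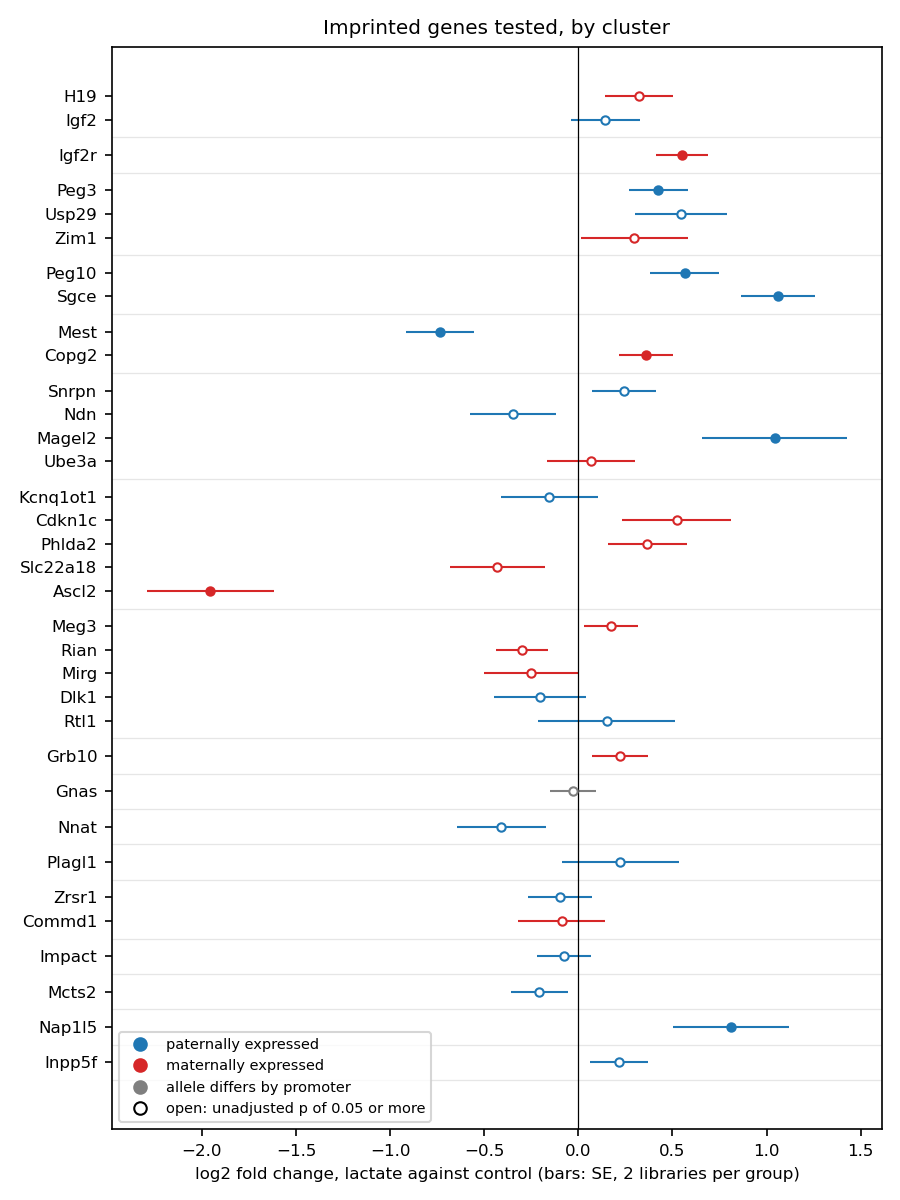
Log2 fold change of lactate over control for the 34 imprinted genes tested, grouped by cluster, with bars of 1 standard error from edgeR. Ascl2 has the lowest value at -1.96 and Sgce the highest at 1.06, and most of the others lie within 0.5 of 0.

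The genes were also grouped by the copy listed as expressed, which was not measured in these cells. Of the 19 paternally expressed genes tested, 11 had a positive and 8 a negative log2 fold change, with a median of 0.15. The maternally expressed genes had 9 positive and 5 negative values among 14, with a median of 0.20. The sign of the paternal median rested on single libraries, as it was -0.06 without control replicate 2 and -0.07 without lactate replicate 1. Genes listed with a promoter at a germline DMR numbered 15, of which 14 were tested. Of these, 4 were higher, or 28.6%, and 1 was lower, or 7.14%, at an unadjusted p below 0.05, with a median log2 fold change of 0.22. Among the 20 other genes 3 were higher, or 15%, and 1 was lower, or 5%, with a median of 0.15. Over all genes these shares were 11.7 and 11.4 percent. The difference between these groups was not tested. The label was given per gene and not per promoter. Genes with several promoters, such as Gnas and Grb10, count among the others, and whether some of their promoters lie at a DMR was not checked.

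Peg10 and Sgce share a germline DMR at their divergent promoters on mouse chromosome 6, and both were higher with lactate at an unadjusted p below 0.05. Sgce (chr6:4674350-4747207, minus strand, GRCm38) encodes epsilon-sarcoglycan and had 159 and 141 counts in control and 349 and 314 with lactate. Both lactate libraries lay well above both control libraries. The mean was 8.31 ± 1.25 CPM in control and 17.4 ± 2.02 CPM with lactate (SD, n = 2 per group). The log2 fold change of Sgce was 1.06 with a standard error (SE) of 0.20, and the adjusted p from edgeR was 0.058. Peg10 (chr6:4747306-4760517, plus strand) is a gene derived from a retrotransposon that the placenta requires, and it starts 0.099 kb from Sgce. It had 2616 and 2273 counts in control and 4153 and 3502 with lactate, and the groups did not overlap. Its log2 fold change was 0.56 (SE 0.18), with an unadjusted p of 0.0203 and an adjusted p of 0.144 from edgeR.

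The nearby genes Casd1, Pon3 and Pon2 were part of a list of genes that neighbour imprinted clusters, and they too were higher at an unadjusted p below 0.05. Casd1, a sialic acid acetyltransferase gene, had 230 and 185 counts in control and 357 and 334 with lactate, a log2 fold change of 0.65 (SE 0.21). Pon2 and Pon3 encode paraoxonases and had log2 fold changes of 0.74 (SE 0.23) and 0.59 (SE 0.22). Ppp1r9a, which encodes a regulator of protein phosphatase 1 and lies 155.7 kb from the start of Sgce, had a log2 fold change of 0.33 (SE 0.15) that did not pass. Their adjusted p-values from edgeR were between 0.133 and 0.255.

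**Figure D3:**
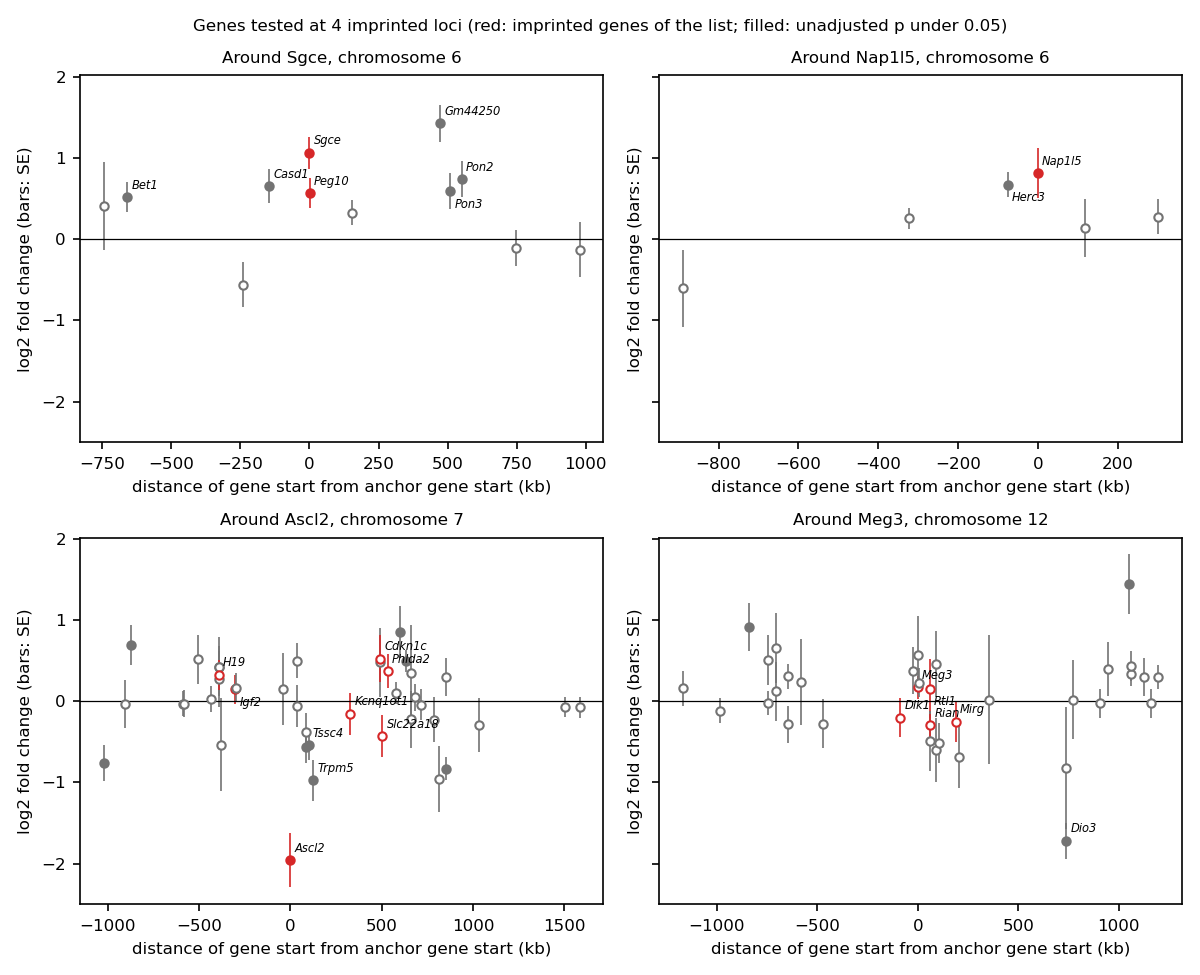
Log2 fold change of the genes tested around 4 imprinted loci against the distance in kb from the start of Sgce, Nap1l5, Ascl2 and Meg3. Imprinted genes of the list are red, and filled points have an unadjusted p below 0.05. Around Sgce 5 of the 10 other genes are filled and higher, and near Ascl2 the point at -1.96 stands below its neighbours.

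Ascl2, a maternally expressed transcription factor gene of the Kcnq1ot1 cluster that placental trophoblast requires, had the largest difference of the 34 genes tested. It had 130 and 85 counts in control and 25 and 34 with lactate. Both lactate libraries lay below both control libraries by a wide margin, although the control libraries also differed from each other. The mean was 6.0 ± 2.1 CPM in control and 1.53 ± 0.268 CPM with lactate (SD, n = 2 per group), which is 3.88-fold lower in the fit. The log2 fold change of Ascl2 was -1.96 (SE 0.34), with an unadjusted p of 0.00098 and an adjusted p of 0.0543 from edgeR. The promoter of Ascl2 is shown because it belongs to the gene with this difference. The window holds 250 bases before and 50 bases after the start (chr7:142969215-142969514, minus strand, GRCm38.p6, RefSeq), with 23 CpG sites and no ZFP57 hexamer (TGCCGC or GCGGCA, either strand). The sequence reads 5′ to 3′ and has no capitals because no hexamer was found.
Ascl2: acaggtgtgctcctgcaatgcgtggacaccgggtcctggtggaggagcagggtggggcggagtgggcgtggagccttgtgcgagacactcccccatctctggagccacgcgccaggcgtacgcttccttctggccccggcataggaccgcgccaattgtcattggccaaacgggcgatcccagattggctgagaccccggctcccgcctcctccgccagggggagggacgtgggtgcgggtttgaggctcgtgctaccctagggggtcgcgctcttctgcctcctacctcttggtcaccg

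The other genes of the Kcnq1ot1 cluster on chromosome 7 did not pass at an unadjusted p below 0.05. Kcnq1ot1, the paternally expressed antisense RNA whose promoter carries the DMR, had 307 and 236 counts in control and 296 and 221 with lactate. The gap between its replicates was larger than that between the groups, and its log2 fold change was -0.15. Cdkn1c, a maternally expressed inhibitor of cyclin-dependent kinases, had 23 and 19 counts in control and 31 and 33 with lactate, a log2 fold change of 0.52. Phlda2, which restrains placental growth, had 95 and 120 counts in control and 127 and 166 with lactate, a log2 fold change of 0.37. Slc22a18, a transporter gene, had a log2 fold change of -0.43. The maternally expressed genes of this cluster thus had differences of both signs. Of its neighbours Trpm5, a cation channel gene, had 58 and 59 counts in control and 27 and 36 with lactate, a log2 fold change of -0.97 (SE 0.25). Its FPKM gave a difference of the opposite sign, 0.25 on the log2(FPKM + 1) scale. The RSEM expected counts of Trpm5 were also far lower, at 6 and 8.04 in control and 8 and 13.03 with lactate. Tssc4 had a log2 fold change of -0.54 (SE 0.19), and both genes had an unadjusted p below 0.05. Tssc4 lies within the span of Trpm5 on the opposite strand. Reads there cannot be assigned if strand was not used in counting.

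Mest and Copg2 overlap at their ends on chromosome 6 and had differences of opposite sign, both at an unadjusted p below 0.05. Mest, a paternally expressed gene of the hydrolase family whose promoter carries the DMR, had 719 and 638 counts in control and 461 and 402 with lactate. All lactate values lay below all control values. The mean level of Mest was 37.6 ± 5.62 CPM in control and 22.6 ± 3.13 CPM with lactate (SD, n = 2 per group). Its log2 fold change was -0.73 (SE 0.18), with an unadjusted p of 0.00625 and an adjusted p of 0.0927 from edgeR. Copg2, which encodes a coatomer subunit, had 1410 and 1751 counts in control and 1930 and 2343 with lactate. The groups did not overlap, although replicate 2 was higher than replicate 1 in both. Copg2 had a log2 fold change of 0.36 (SE 0.14), with an unadjusted p of 0.0457 and an adjusted p of 0.207 from edgeR. These genes lie on opposite strands and share 912 exon bases, 23.1% of those of Mest, so reads there cannot be assigned if strand was not used in counting. The promoter of Mest (chr6:30737800-30738099, plus strand, GRCm38.p6, RefSeq) is shown because it lies at a germline DMR and holds the hexamer at 2 places. Capitals mark the hexamers in the sequence, which reads 5′ to 3′ and holds 17 CpG sites.
Mest: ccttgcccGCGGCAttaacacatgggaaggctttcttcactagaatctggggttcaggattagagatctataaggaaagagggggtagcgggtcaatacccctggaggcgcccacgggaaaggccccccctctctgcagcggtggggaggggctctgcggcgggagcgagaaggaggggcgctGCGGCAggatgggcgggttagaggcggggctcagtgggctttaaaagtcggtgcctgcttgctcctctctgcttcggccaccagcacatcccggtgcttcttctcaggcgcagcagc

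Igf2r, the maternally expressed receptor that clears IGF2 from the cell surface, was higher with lactate. It had 3026 and 3800 counts in control and 5052 and 5495 with lactate. Both lactate libraries were above both control libraries by more than the gaps within groups. The mean level of Igf2r was 188 ± 17.9 CPM in control and 275 ± 4.79 CPM with lactate (SD, n = 2 per group), a 1.47-fold difference in the fit. Igf2r had a log2 fold change of 0.55 (SE 0.14), with an unadjusted p of 0.0066 and an adjusted p of 0.0946 from edgeR. The ligand gene Igf2 had 164 and 158 counts in control and 175 and 202 with lactate, with groups that overlapped in CPM and a log2 fold change of 0.14. Its exons share 62.8% of their bases with the overlapping gene Gm49394, and the authors' RSEM expected counts of Igf2 in the same libraries were higher, at 289, 273, 319 and 352. H19 had 226 and 222 counts in control and 262 and 333 with lactate, a log2 fold change of 0.32. Neither gene of this pair passed at an unadjusted p below 0.05.

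In the Peg3 cluster on chromosome 7 all 3 genes tested had a positive log2 fold change, and Peg3 had an unadjusted p below 0.05. Peg3, a paternally expressed zinc finger gene, had 1061 and 997 counts in control and 1558 and 1364 with lactate, and the groups did not overlap. Peg3 had a log2 fold change of 0.43 (SE 0.16), with an unadjusted p of 0.0349 and an adjusted p of 0.182 from edgeR. Usp29, a paternally expressed gene related to ubiquitin proteases, had 64 and 64 counts in control and 111 and 86 with lactate. Its log2 fold change of 0.54 (SE 0.24) did not pass, with an unadjusted p of 0.0657 from edgeR. Zim1, the maternally expressed zinc finger gene of the cluster, had 38 and 36 counts in control and 55 and 41 with lactate, and the groups overlapped in CPM. Peg3 and Usp29 start head to head at their germline DMR, and their promoter windows of 300 bases share 263 bases. The window of Peg3 (chr7:6730370-6730669, minus strand, GRCm38.p6, RefSeq) is therefore shown for both, with 13 CpG sites and no hexamer within these letters.
Peg3: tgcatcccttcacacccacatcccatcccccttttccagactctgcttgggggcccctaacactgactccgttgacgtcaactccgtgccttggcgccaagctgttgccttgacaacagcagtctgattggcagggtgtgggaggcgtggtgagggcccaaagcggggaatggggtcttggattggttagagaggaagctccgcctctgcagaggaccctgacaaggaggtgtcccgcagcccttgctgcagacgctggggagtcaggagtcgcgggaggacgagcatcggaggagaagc

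In the Snrpn-Ube3a cluster, the mouse counterpart of the Prader-Willi and Angelman region, Magel2 was higher at an unadjusted p below 0.05. Magel2, a paternally expressed regulator of ubiquitin ligases, had 8 and 7 counts in control and 14 and 19 with lactate. The groups did not overlap, but these are among the lowest counts of the genes tested. Magel2 had a log2 fold change of 1.04 (SE 0.38), with an unadjusted p of 0.0335 and an adjusted p of 0.179 from edgeR. Snrpn, a splicing factor gene whose promoter lies at the DMR, had 546 and 739 counts in control and 709 and 894 with lactate, with overlapping groups and a log2 fold change of 0.24. Ndn, a paternally expressed gene of the same protein family as Magel2, had 160 and 255 counts in control and 165 and 177 with lactate, a log2 fold change of -0.35. Ube3a, the maternally expressed ubiquitin ligase of Angelman syndrome, had a log2 fold change of 0.07, smaller than the gap between its replicates. Reads of Ube3a and of its antisense partner Snhg14 cannot be told apart where they overlap if strand was not used, as 8.7% of its exon bases are shared with Snhg14 and 27.3% with any gene. Of the neighbours Peg12 had 225 and 330 counts in control and 170 and 192 with lactate, a log2 fold change of -0.69 (SE 0.20) at an unadjusted p of 0.0141 from edgeR.

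**Figure D4:**
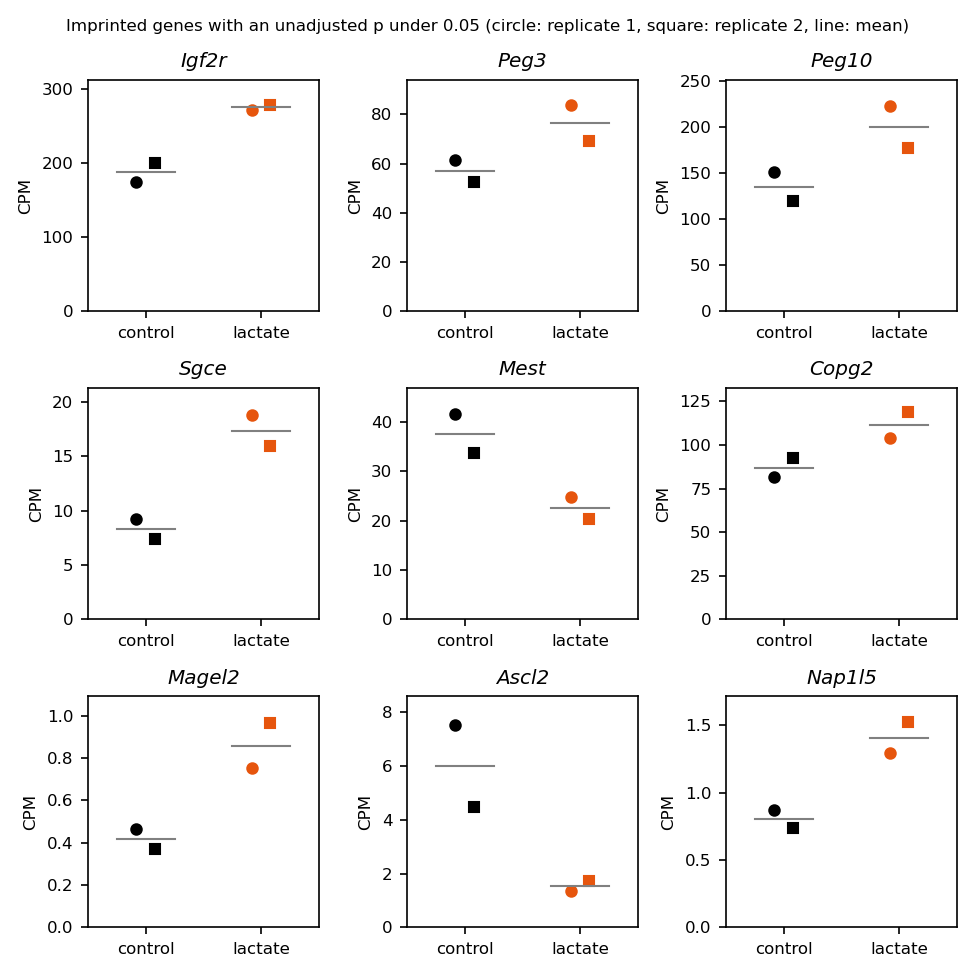
CPM in each of the 4 libraries for the imprinted genes with an unadjusted p below 0.05. Each panel has its own axis that starts at 0, points are libraries and lines are group means. The 2 groups do not overlap in any panel, and Ascl2 and Mest are the genes with lower lactate values.

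The 5 genes of the Dlk1-Meg3 cluster on chromosome 12 had small differences of both signs, and none passed at an unadjusted p below 0.05. Meg3 had 2840 and 3234 counts in control and 3229 and 4016 with lactate, a log2 fold change of 0.17. Rian, a maternally expressed host RNA of small nucleolar RNAs, had 4053 and 4113 counts in control and 3613 and 3402 with lactate. Both lactate libraries of Rian were below both control libraries, with a log2 fold change of -0.30 (SE 0.14) and an unadjusted p of 0.0725 from edgeR. Mirg, a host RNA of microRNAs, had a log2 fold change of -0.25, and Dlk1 and the retrotransposon-derived Rtl1 had values of -0.20 and 0.15 with at most 44 counts in a library. These noncoding RNAs are commonly followed in ESCs because their loss marks cells with poor developmental potential. Here Meg3 and Rian were abundant in every library, and Mirg had 308 and 217 counts in control and 247 and 222 with lactate. The part of feeder RNA in these levels, the parental copy they came from and the developmental potential of the cells were not tested. The neighbour Dio3, a deiodinase gene that inactivates thyroid hormone, lies in the same imprinted domain and fell with lactate. Dio3 is itself imprinted but was not among the 35 genes followed. It had 164 and 162 counts in control and 45 and 60 with lactate, and its replicates lay close together. The log2 fold change of Dio3 was -1.72 (SE 0.22) with an adjusted p of 0.0406 from edgeR. Dio3 was the only gene of the 30 neighbours tested with an adjusted p below 0.05, which 0.991 percent of all genes had.

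Among the genes that stand alone on the list, Nap1l5 was higher at an unadjusted p below 0.05. It is a paternally expressed gene within an intron of Herc3 and had 15 and 14 counts in control and 24 and 30 with lactate. Nap1l5 and Herc3 lie on opposite strands. Intron reads of Herc3 cannot be told from those of Nap1l5 if strand was not used in counting. Nap1l5 had a log2 fold change of 0.81 (SE 0.31), with an unadjusted p of 0.0379 and an adjusted p of 0.189 from edgeR. Its host gene Herc3, a ubiquitin ligase gene, had 314 and 387 counts in control and 602 and 573 with lactate, a log2 fold change of 0.67 (SE 0.16) and an unadjusted p of 0.00484 from edgeR. The solitary genes Grb10 and Inpp5f had log2 fold changes of 0.22 and 0.22, with both lactate libraries above both control libraries. Grb10 restrains insulin and growth factor signalling, and Inpp5f encodes a phosphoinositide phosphatase. Nnat and Mcts2 had values of -0.41 and -0.21, with both lactate libraries below. Gnas had a log2 fold change of -0.03, and 22% of its exon bases are shared with other genes. The groups overlapped for Plagl1, Zrsr1, Commd1 and Impact. Plagl1, a zinc finger gene that regulates other imprinted genes, had 4663 and 3085 counts in control and 5804 and 3794 with lactate, so its replicates differed by more than its groups. The log2 fold change was 0.22 for Plagl1, -0.10 for Zrsr1, -0.09 for Commd1 and -0.07 for Impact. Replicates 1 and 2 differed in the same direction in both groups for 25 of the 34 genes tested. These gaps varied in size, and among those 25 genes Plagl1 had the largest in both groups. For 8 of the 34 the gap between replicates exceeded the fitted change in both groups, and these were Snrpn, Ube3a, Kcnq1ot1, Rtl1, Plagl1, Zrsr1, Commd1 and Impact. The same counts over all genes were not made.

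The ZFP57 hexamer was searched in the promoters of the imprinted genes. RefSeq promoter windows of 300 bases were used for 29 of the 35 genes, 43 windows in all, and 13 of these, or 30.2%, held the hexamer on either strand. Windows on chromosome 18, where Impact lies, were left out for the imprinted genes but not for all promoters. Among all 32851 promoter windows 3813 did, or 11.6%. The windows of the imprinted genes also held more CpG sites, with a median of 15 against 7, and some windows of a gene overlap. For the genes listed with a promoter at a germline DMR, 7 of their 17 windows held it, against 6 of 26 for the other genes. The label was per gene, so not each window of a listed gene lies at the DMR. Windows of the other genes, such as Gnas and Grb10, were not checked for lying at a DMR. The window of Igf2r, whose DMR lies within the gene and not at this promoter, had none.

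A list of 25 factors linked to imprinted regions, called the imprint maintenance list here, was examined beside these genes. It mixes functions, as Tet1, Tet2 and Tet3 act to remove DNA methylation. All 25 factors were tested. At an unadjusted p below 0.05, 3 were higher, or 12%, and 5 were lower, or 20%, against 11.7 and 11.4 percent of all genes, and none passed the adjusted threshold in edgeR. The median log2 fold change of the list was 0.05. Among the protectors of the methylated copy, Zfp57 had 6664 and 7050 counts in control and 8042 and 8241 with lactate, a log2 fold change of 0.17 (SE 0.13) that did not pass. Its partner Trim28 had 20957 and 27532 counts in control and 17551 and 20225 with lactate, a log2 fold change of -0.44 (SE 0.16). Dnmt1, the maintenance methyltransferase, had 8755 and 9887 counts in control and 7361 and 6957 with lactate, a log2 fold change of -0.46 (SE 0.14). Uhrf1, which brings DNMT1 to replicating DNA, had a log2 fold change of -0.50 (SE 0.15). Both lactate libraries lay below both control libraries for Trim28, Dnmt1 and Uhrf1, with adjusted p-values from edgeR of 0.185, 0.133 and 0.129.

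Of the other factors, Dnmt3b, a de novo methyltransferase, had 2036 and 2191 counts in control and 1407 and 1563 with lactate, a log2 fold change of -0.59 (SE 0.12). Ehmt2, the histone H3K9 methyltransferase G9a, had a log2 fold change of -0.84 (SE 0.18) and an adjusted p of 0.0678 from edgeR. On the other side, Dppa3, the gene of the maternal factor STELLA that protects maternal methylation after fertilization, had 71 and 37 counts in control and 142 and 90 with lactate. Its groups did not overlap in CPM, and the log2 fold change was 1.02 (SE 0.41). Zfp42, a pluripotency gene also known as Rex1 that has been linked to imprinted loci, had a log2 fold change of 0.52 (SE 0.14). Ctcfl, a germ line paralogue of the insulator gene Ctcf, had 17 and 11 counts in control and 62 and 59 with lactate, a log2 fold change of 2.02 (SE 0.32) and an adjusted p of 0.052 from edgeR. Ctcf itself, whose protein binds the H19-Igf2 control region, had a log2 fold change of 0.06.

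**Figure D5:**
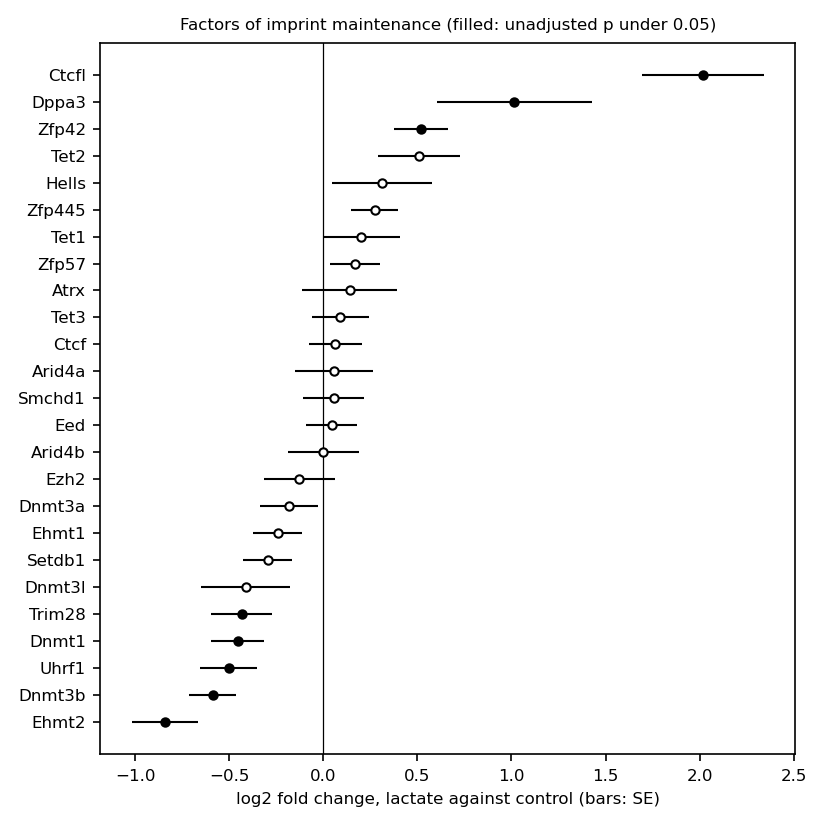
Log2 fold change of lactate over control for the 25 factors of the imprint maintenance list, with bars of 1 standard error from edgeR. Ctcfl has the highest value at 2.02 and Ehmt2 the lowest at -0.84, and filled points mark the 8 genes with an unadjusted p below 0.05.

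The list of genes that neighbour imprinted clusters held 40 names, and several of these are themselves imprinted in the mouse, such as Dio3 and Peg12. Of the 40 names 39 were found and 30 were tested. At an unadjusted p below 0.05, 5 were higher, or 16.7%, and 4 were lower, or 13.3%, against 11.7 and 11.4 percent of all genes, with a median log2 fold change of -0.04. The higher ones were Herc3, Pon2, Casd1, Pon3 and Slc38a4, and the lower ones were Dio3, Trpm5, Peg12 and Tssc4. Trpm5 and Tssc4 overlap, so their counts may not be independent. Slc38a4, an amino acid transporter gene that is itself imprinted in the mouse, had 4571 and 4939 counts in control and 6004 and 6509 with lactate, a log2 fold change of 0.32 (SE 0.13). Casd1, Pon2 and Pon3 lie by Sgce and Peg10, and Herc3 by Nap1l5, and all of these genes had positive values.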

How the data were processed

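Total RNA was sequenced from 2 control and 2 lactate libraries. The authors trimmed reads with cutadapt 1.16, aligned them with STAR to mm10 and counted reads in exons with the GeneCounts mode of STAR, per the study's methods. They deposited raw counts per gene and per transposable element family, and RSEM expected counts, TPM and FPKM. The strand setting and how the element families were counted are not given in the sources used here. RSEM lengths differ between libraries, so FPKM can move without the counts, and TPM was not used.

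Counts of all genes were tested with edgeR 4.0.16 (R 4.3.3, quasi-likelihood, TMM, filterByExpr), with a BH adjusted p below 0.05 and a change over 2-fold as the call. The SE is the log2 fold change over the square root of F. Library totals of 18067562 to 19077885 counts and a biological coefficient of variation of 15.9% set the precision. The smallest exact permutation p with 2 against 2 is 0.333. DESeq2 1.42.0, limma 3.58.1 on log2(FPKM + 1) and log2(FPKM + 0.1), RSEM counts rounded to whole numbers, other scalings and filters, a replicate block and leaving out libraries were the alternatives. Scripts were tested on simulated data.

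The members and lists were chosen with earlier results of these data known. Imprinted genes, neighbours and maintenance factors with an unadjusted p below 0.05 or a change over 2-fold are given with log2 fold change and SE. Counts and p-values are given for part of them. In the maintenance list 6 factors were to be named at any p-value. Gene positions came from GENCODE M21 (GRCm38), where all 35 identifiers matched, 32 with the same version. Locus windows of 1000 kb were chosen after values were seen.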

Additional observations from a re-analysis of the deposited data

How the results depend on the processing

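The number of genes higher at an unadjusted p below 0.05, 7 in edgeR, was 3 in DESeq2, 15 with a replicate block and 2 to 6 with a library left out. The number lower, 2, was 2 in DESeq2 and 6 with the block, against 4.99 and 25.5 percent of all genes in those fits. The number called, 0, was 2 in DESeq2, 2 with no filter and 2 with the block. In those fits 1.09, 2.45 and 6.19 percent of all genes were called. The replicate numbers are not tied to shared cultures by the labels, and both replicates numbered 1 deviated together (r = 0.69 across genes). With the block 25.7 percent of all genes were higher and 25.5 percent lower at an unadjusted p below 0.05, and 6.19 percent were called. An adjusted p below 0.05 alone was reached by 17 imprinted genes with the block, where 44.5 percent of all genes reached it, and by 3 with no filter (Sgce, Ascl2 and Mest), against 5.0 percent.

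The median log2 fold change was 0.032 to 0.24 over all imprinted genes, -0.071 to 0.22 over the paternally expressed and 0.077 to 0.25 over the maternally expressed genes with a library left out. The maternal median of 0.20 was 0.26 with library totals alone and 0.13 on log2(FPKM + 1). Of 53 genes followed under 10 alternatives, 6 changed sign, and the cause was not tested. On log2(FPKM + 1) and log2(FPKM + 0.1) the values were -0.22 and -0.54 for Zim1, 0.10 and 0.13 for Dlk1, 0.046 and 0.047 for Gnas, 0.010 and 0.014 for Nnat, 0.020 and 0.022 for Zrsr1, and 0.25 and 0.83 for Trpm5. Gnas was 0.0047 with upper-quartile factors and 0.039 with library totals alone. With a library left out the sign held in 25 of 34 imprinted genes, and values ranged from -0.0029 to 0.53 for Zim1, -0.22 to 0.33 for Ube3a, -0.46 to 0.11 for Kcnq1ot1, -0.54 to 0.084 for Mirg, -0.15 to 0.48 for Rtl1, -0.20 to 0.62 for Plagl1, -0.25 to 0.045 for Zrsr1, -0.33 to 0.16 for Commd1, -0.22 to 0.030 for Impact and -0.076 to 0.17 for Ctcf. Counts under 50 in a library, as in Magel2, Nap1l5, Airn and Rtl1, limit what could be detected.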

Other observations

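The 10 other genes tested within 1000 kb of Peg10 and Sgce had a median log2 fold change of 0.46, where the 905 genes tested on chromosome 6 had a median of 0.05. Of these 10 genes 7 had a positive value, 5 were higher at an unadjusted p below 0.05 and 0 were lower in edgeR, where 11.7 percent of all genes were higher and 11.4 percent lower. In the windows around Mest and Copg2 and around Plagl1, 5 of 16 and 4 of 11 other genes were higher, and 0 and 1 were lower. Beside Casd1, Pon2 and Pon3 the higher ones were Bet1, a vesicle transport gene, and Gm44250, both named after their values were seen. Gm44250 had 40 and 37 counts in control and 101 and 119 with lactate, a log2 fold change of 1.43 (SE 0.23), and lies 473.3 kb from the start of Sgce. Col1a2, a collagen gene and fibroblast marker in the same window, had 1712 and 3090 counts in control and 1372 and 2051 with lactate, a log2 fold change of -0.56 (SE 0.28) that did not pass. The windows around the other imprinted clusters had medians between -0.09 and 0.26.

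The FPKM of Impact was 133.8 and 69.7 in control and 121.2 and 62.1 with lactate, although its counts were 3678, 3786, 3920 and 3562. The effective length that RSEM gave it was 1338 and 2667 bases in control and 1569 and 2828 bases with lactate. The effective length of Zim1 varied 3.5-fold and that of Dlk1 1.98-fold between libraries.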
